A study of Mus musculus with 8 samples.

Results

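10 genes were examined, among 24108 named genes in the count table and 13989 tested, because their level went with the Foxp3 reporter of the cell in both states of a second, red label. They are Boc, Nr3c2, Naip5, Abcb1a, Atp9a, Susd2, Ttn and Ctnnd1, which were lower in GFP cells, and Stom and Angptl2, which were higher. Members were taken from the rows of the count table by name, and all 10 were present and passed the filter on low counts. The choice rested on the difference between GFP and Thy1.1 cells within tdTomato-positive and within tdTomato-negative cells, so members were selected on these values, and the differences are given below as a description without a test.

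RNA was sequenced from CD4 T cells of mouse mesenteric lymph nodes. Foxp3, an X-linked gene, encodes the factor that specifies regulatory T (Treg) cells. All cells carried the genotype written Foxp3DTR-GFP/Thy1.1 CD4CreER/wt R26lsl-tdTomato/wt, in which 1 Foxp3 allele reports with GFP and carries the diphtheria toxin receptor (DTR) and the other is marked by Thy1.1. Tamoxifen activates the Cre recombinase, which is under CD4 control, and turns on tdTomato in CD4-expressing cells. Mice grew up on AVNM (an abbreviation the labels do not explain) and a diet of defined amino acids, and all were given tamoxifen and, over a labelling time of about 3 weeks, diphtheria toxin. The aim of that step was to mark CD4 T cells outside the thymus that did not express Foxp3. All mice were then moved to chow and SPF fecal microbes, and cells were sorted 12 days after colonization. The populations were tdTomato-positive GFP, tdTomato-positive Thy1.1, tdTomato-negative GFP and tdTomato-negative Thy1.1 cells, with 2 libraries each, and no group here lacked toxin or colonization. The toxin receptor is tied to GFP, so toxin and reporter cannot be told apart. The labels do not give the animals behind each library, their age or whether animals were pooled, and the libraries of a population may be technical repeats. In bulk RNA, fewer cells that express a gene and less RNA per cell cannot be told apart.

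Treg cells arise in the thymus or are induced from other CD4 T cells in the periphery, and mesenteric lymph nodes drain the gut, where food and microbial antigens drive induction. A red GFP cell is a candidate for induction after labelling, since the toxin receptor is tied to GFP. A red Thy1.1 cell could also have expressed Foxp3 before labelling. The 10 genes share no textbook pathway. They encode a co-receptor of Hedgehog signalling (Boc), a steroid hormone receptor (Nr3c2, the mineralocorticoid receptor), a cytosolic sensor of bacterial flagellin in the mouse (Naip5), a drug efflux pump (Abcb1a, a P-glycoprotein gene), a member of the P4-ATPase family of membrane proteins (Atp9a), a membrane protein with a sushi domain (Susd2), the giant spring protein of muscle sarcomeres (Ttn, titin), a catenin that binds the cytoplasmic tail of cadherins (Ctnnd1, p120-catenin), an integral membrane protein first known from red blood cells (Stom, stomatin) and a secreted angiopoietin-like protein (Angptl2).

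Library totals lay between 38085686 and 47908198 counts. Values are given in CPM, each gene's counts relative to the library's scaled total, with the column numbers of the table as library numbers (3 and 4 for GFP, 1 and 2 for Thy1.1). A count of 0 allows up to 0.0614 to 0.0806 CPM in a library. Foxp3 was at 126 and 141 CPM in tdTomato-positive GFP cells, against 186 and 187 CPM in tdTomato-positive Thy1.1 cells (edgeR adjusted p = 0.0314), and at 146 and 166 CPM in tdTomato-negative GFP cells, against 175 and 201 CPM in the tdTomato-negative Thy1.1 cells (edgeR adjusted p = 0.43). Of the 5 other Treg markers, Ikzf2 and Ikzf4 were called lower and Ctla4 higher with GFP in tdTomato-positive cells, at -2.34, -3.08 and 1.39 on the log2 scale. Thy1, whose product carries the Thy1.1 mark, was at 51.6 and 46.8 CPM in tdTomato-positive GFP cells, against 83.5 and 93.2 CPM in tdTomato-positive Thy1.1 cells, and at 39.8 and 36.3 CPM in tdTomato-negative GFP cells, against 80.8 and 72.6 CPM in the tdTomato-negative Thy1.1 cells. T cell markers were present throughout, with Cd3e between 965 and 1370 CPM. Myeloid and dendritic cell markers, 9 in all, summed to 8.84 to 37.3 CPM in tdTomato-positive GFP cells, 4.43 to 6.71 CPM in tdTomato-positive Thy1.1 cells, 13.0 to 106 CPM in tdTomato-negative GFP cells and 5.82 to 7.22 CPM in the tdTomato-negative Thy1.1 cells, with Clec9a at 0 in every library. The highest sum was that of tdTomato-negative GFP library 3, so the calls and the fitted fold changes were also computed without it. The 5 B cell markers went with the reporter, at 8.44 to 17.7 CPM in tdTomato-positive GFP cells, 38.9 to 42.2 CPM in tdTomato-positive Thy1.1 cells, 18.7 to 22.4 CPM in tdTomato-negative GFP cells and 36.6 to 42.7 CPM in the tdTomato-negative Thy1.1 cells. Most of that sum was Cd79b in all Thy1.1 libraries. Its part in the results was not tested.

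The starts of the genes are shown first, since members that move together may share letters there. RefSeq promoters on GRCm38.p6, from 250 bases before to 50 after an annotated start, were found for 8 of the 10 members, with 12 promoters between them. 5 short motifs were searched on both strands. The forkhead motif was spelled TGTTTAC and the RUNX motif TGTGGT. The AP-1 motif was spelled TGANTCA, where N is any base. The GC box was searched as GGGCGG. For the TATA box the letters were TATAAA. The promoters of Stom and Angptl2, higher in GFP cells, and of Nr3c2 and Abcb1a, lower in GFP cells, are printed 5′ to 3′ with the motif matches in capitals.
Stom promoter, chr2:35336960-35337259, - strand: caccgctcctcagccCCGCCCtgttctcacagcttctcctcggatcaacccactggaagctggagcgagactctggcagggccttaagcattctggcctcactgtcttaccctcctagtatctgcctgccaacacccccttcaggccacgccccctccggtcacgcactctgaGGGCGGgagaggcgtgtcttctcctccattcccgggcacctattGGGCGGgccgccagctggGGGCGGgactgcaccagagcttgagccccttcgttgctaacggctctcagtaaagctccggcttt
Angptl2 promoter, chr2:33215711-33216010, + strand: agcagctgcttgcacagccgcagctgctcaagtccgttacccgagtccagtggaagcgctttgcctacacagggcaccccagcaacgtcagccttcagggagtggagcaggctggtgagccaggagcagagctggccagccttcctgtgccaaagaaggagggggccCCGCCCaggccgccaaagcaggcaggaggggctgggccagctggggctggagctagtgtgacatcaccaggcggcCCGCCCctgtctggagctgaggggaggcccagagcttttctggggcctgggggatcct
Nr3c2 promoter, chr8:76902080-76902379, + strand: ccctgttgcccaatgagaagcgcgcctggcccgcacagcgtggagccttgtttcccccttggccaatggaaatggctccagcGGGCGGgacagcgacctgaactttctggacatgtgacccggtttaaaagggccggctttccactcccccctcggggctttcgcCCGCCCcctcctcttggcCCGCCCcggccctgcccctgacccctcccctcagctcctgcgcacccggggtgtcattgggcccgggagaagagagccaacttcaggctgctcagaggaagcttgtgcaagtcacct
Abcb1a promoter, chr5:8566841-8567140, + strand: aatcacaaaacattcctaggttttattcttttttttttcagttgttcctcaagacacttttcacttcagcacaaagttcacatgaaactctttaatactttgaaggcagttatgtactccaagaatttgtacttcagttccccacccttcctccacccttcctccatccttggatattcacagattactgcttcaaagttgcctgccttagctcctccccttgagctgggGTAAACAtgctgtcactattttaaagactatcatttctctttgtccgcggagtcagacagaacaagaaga
Stom held 4 GC boxes, Angptl2 held 2 and Nr3c2 held 3, so this motif stood on both sides of the reporter difference. The forkhead motif, the family motif to which Foxp3 belongs, was matched in Abcb1a only, 20 bases before the start. Of the 12 member promoters, 5 held a GC box, 2 a TATA box, 1 the RUNX motif, 1 the forkhead motif and 0 the AP-1 motif. Over all 32851 promoters of the same length, 35.7% held a GC box, 13.6% a TATA box, 16.8% the RUNX motif, 3.65% the forkhead motif and 7.81% the AP-1 motif. Several of these promoters belong to 1 gene, and a match describes letters, not binding.

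GFP and Thy1.1 libraries did not overlap within tdTomato-positive or within tdTomato-negative cells for any of the 10 genes. By the same rule, 12.2% of genes tested lay above and 10.8% below Thy1.1 in GFP cells of both states. With the 4 GFP libraries set against the 4 Thy1.1 libraries at once, 9 of the 10 genes did not overlap, against 7.03% of genes tested above and 6.09% below. All 10 members were also past the threshold (edgeR, Benjamini-Hochberg adjusted p under 0.05) in both states, as the choice requires. In tdTomato-negative cells 0 of the 10 were called without any 1 of the 4 Thy1.1 libraries, 4 without tdTomato-negative GFP library 3 and 7 without tdTomato-negative GFP library 4. The background was 14.8% of genes tested in tdTomato-positive cells, 0.164% in tdTomato-negative cells (0.0643% higher and 0.1% lower) and 0.15% in both states with the same sign (0.0643% higher and 0.0858% lower). Nothing is read from these counts.

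**Figure D1:**
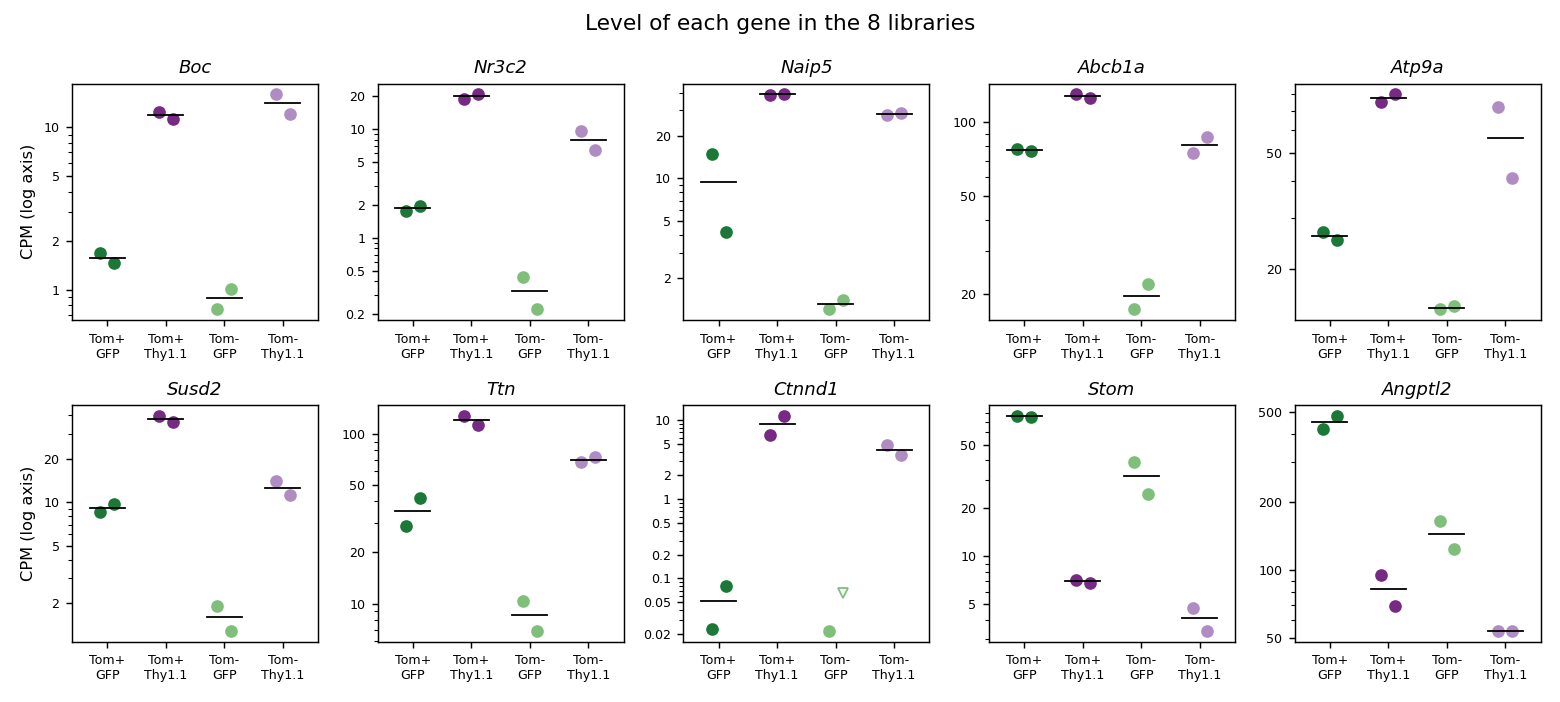
Level of the 10 genes in each library, in CPM on a logarithmic axis that differs between panels, for tdTomato-positive (Tom+) and tdTomato-negative (Tom-) cells with GFP or Thy1.1. Points are libraries, black lines are means of 2 libraries, and an open triangle marks a count of 0 drawn at the level of 3 counts. GFP lies below Thy1.1 in 8 panels and above it in the panels of Stom and Angptl2.

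Of the signalling receptors, Boc, which with Cdon helps cells bind Hedgehog ligands, was at 1.67 and 1.45 CPM in tdTomato-positive GFP cells, against 12.4 and 11.2 CPM in tdTomato-positive Thy1.1 cells. In tdTomato-negative cells it was at 0.757 and 1.01 CPM with GFP, against 15.9 and 12.1 CPM with Thy1.1. The log2 fold change of GFP over Thy1.1 was -2.92 ± 0.38 in tdTomato-positive cells and -3.98 ± 0.40 in tdTomato-negative cells (SE, 2 libraries per population here and below). Boc was thus several-fold lower in every GFP library than in any Thy1.1 library, and its Thy1.1 populations overlapped each other.

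Nr3c2, the receptor of aldosterone that also binds glucocorticoids, had 1.76 and 1.96 CPM in tdTomato-positive GFP cells, against 19.0 and 20.8 CPM in tdTomato-positive Thy1.1 cells. Its level was 0.433 and 0.22 CPM in tdTomato-negative GFP cells, against 9.48 and 6.38 CPM in the tdTomato-negative Thy1.1 cells. The differences were -3.42 ± 0.43 and -4.59 ± 0.47 on the log2 scale. All 4 populations stood apart, in the order tdTomato-positive Thy1.1, tdTomato-negative Thy1.1, tdTomato-positive GFP and tdTomato-negative GFP from high to low. Exons of Nr3c2 overlap those of Gm10649 on the other strand, and these libraries carry no strand mark, so the shared reads cannot be assigned.

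Naip5, which on binding flagellin assembles with Nlrc4 into an inflammasome, differed between the libraries of 1 population. It had 14.8 CPM in library 3 and 4.22 CPM in library 4 of tdTomato-positive GFP cells, against 38.8 and 38.9 CPM in tdTomato-positive Thy1.1 cells. The values were 1.21 and 1.41 CPM in tdTomato-negative GFP cells, against 27.7 and 29.0 CPM in the tdTomato-negative Thy1.1 cells. The log2 fold change was -2.03 ± 0.49 in tdTomato-positive and -4.43 ± 0.56 in tdTomato-negative cells. The first was -3.25 without tdTomato-positive GFP library 3 and -1.40 without tdTomato-positive GFP library 4. Library 3 of these cells also held 21.9 CPM of the myeloid gene Lyz2, against 0 CPM in library 4. In tdTomato-negative GFP cells Lyz2 was at 20.4 CPM in library 3 and 3.01 CPM in library 4, where Naip5 was low in both. The part of myeloid cells in the Naip5 level was not tested.

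The membrane transport genes differed by less. Abcb1a, whose product pumps drugs and other compounds out of cells, was at 78.1 and 76.8 CPM in tdTomato-positive GFP cells, against 130 and 126 CPM in tdTomato-positive Thy1.1 cells. It was at 17.4 and 22.0 CPM in tdTomato-negative GFP cells, against 74.9 and 87.3 CPM in the tdTomato-negative Thy1.1 cells. Abcb1a was the 1 member in which GFP and Thy1.1 libraries overlapped across label states, since tdTomato-positive GFP cells lay within the range of tdTomato-negative Thy1.1 cells. Its log2 fold change was -0.73 ± 0.14 in tdTomato-positive cells and -2.04 ± 0.15 in tdTomato-negative cells. The neighbouring paralog Abcb1b was at -0.08 ± 0.25 (edgeR adjusted p = 0.871) and -0.80 ± 0.25 (edgeR adjusted p = 0.264). Any reads shared by these paralogs, and by Abcb1a and the opposite-strand Gm42686, could be split by the authors' counting.

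Atp9a, a P4-ATPase gene, had 26.7 and 25.2 CPM in tdTomato-positive GFP cells, against 74.8 and 79.6 CPM in tdTomato-positive Thy1.1 cells. The tdTomato-negative values were 14.5 and 14.9 CPM with GFP, against 71.8 and 41.0 CPM with Thy1.1, where the 2 libraries were far apart. The log2 fold changes were -1.57 ± 0.25 and -1.94 ± 0.25. Atp9a thus had the least change of its reporter difference between label states among the 10 genes, with a difference of 0.37 ± 0.34.

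Susd2 was at 8.57 and 9.72 CPM in tdTomato-positive GFP cells, against 39.6 and 36.0 CPM in tdTomato-positive Thy1.1 cells. Its tdTomato-negative level was 1.90 and 1.28 CPM with GFP, against 14.0 and 11.2 CPM with Thy1.1. The log2 fold changes were -2.05 ± 0.28 and -2.98 ± 0.29. Every population was separate from the next.

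The structural genes were titin and p120-catenin. Ttn had 28.6 and 41.8 CPM in tdTomato-positive GFP cells, against 127 and 113 CPM in tdTomato-positive Thy1.1 cells. In tdTomato-negative cells Ttn was at 10.3 and 6.89 CPM with GFP, against 68.1 and 72.6 CPM with Thy1.1. The log2 fold change was -1.77 ± 0.24 and -3.03 ± 0.25. The muscle markers Des and Myh1 had no count in any library, and Acta1, the actin of skeletal muscle, did not exceed 0.537 CPM. Other muscle markers were detected, with Mylpf at 5.08 to 7.64 CPM over all libraries, Tnnt3 at up to 5.18 CPM and Ckm at up to 1.96 CPM. The part of muscle cells in the Ttn level was not tested. The 7 muscle markers summed to 7.58 to 9.52 CPM in tdTomato-positive GFP cells, 9.1 to 11.3 CPM in tdTomato-positive Thy1.1 cells, 8.63 to 12.3 CPM in tdTomato-negative GFP cells and 12.0 to 12.7 CPM in the tdTomato-negative Thy1.1 cells. Exons of Ttn overlap Gm13938 on the other strand.

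Ctnnd1 was nearly without counts in GFP cells. It had 1 and 3 counts in libraries 3 and 4 of tdTomato-positive GFP cells, against 315 and 491 counts (6.44 and 11.2 CPM) in tdTomato-positive Thy1.1 cells. In tdTomato-negative cells it had 1 and 0 counts with GFP, against 228 and 156 counts (4.83 and 3.64 CPM) with Thy1.1. Pooled over libraries, Thy1.1 exceeded GFP by a ratio of 177 in tdTomato-positive cells (95% exact counting interval 69.0 to 653, from 4 against 806 counts) and by a ratio of 391 in tdTomato-negative cells (69.8 to 15500, from 1 against 384 counts). These intervals cover counting error only. Levels in GFP cells were thus at or near the limit of detection in both label states. Exons of Ctnnd1 overlap Gm28635 on the same strand. Other cadherin and catenin genes stood at varied levels. Over all libraries Ctnnd2 was at 0.269 to 2.47 CPM, Arvcf at 1.5 to 5.33 CPM and Pkp4 at 21.4 to 36.8 CPM. Ctnnb1, which encodes beta-catenin, was at 162 and 232 CPM in tdTomato-positive GFP cells, against 189 and 197 CPM in tdTomato-positive Thy1.1 cells.

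The pair of genes higher with GFP were Stom and Angptl2. Stom was at 76.0 and 75.2 CPM in tdTomato-positive GFP cells, against 7.08 and 6.83 CPM in tdTomato-positive Thy1.1 cells. It was at 39.2 and 24.6 CPM in tdTomato-negative GFP cells, against 4.76 and 3.39 CPM in the tdTomato-negative Thy1.1 cells. The log2 fold changes were 3.44 ± 0.28 and 2.97 ± 0.28. The 4 erythroid markers in the table were uneven in the same cells, and summed to 5.37 to 47.5 CPM in tdTomato-positive GFP cells, 1.84 to 2.01 CPM in tdTomato-positive Thy1.1 cells, 3.48 to 3.72 CPM in tdTomato-negative GFP cells and 1.73 to 2.99 CPM in the tdTomato-negative Thy1.1 cells. The globin gene Hba-a2 was at 29.5 and 3.55 CPM in tdTomato-positive GFP cells, against 0.0818 and 0.0686 CPM in tdTomato-positive Thy1.1 cells (edgeR adjusted p = 0.0195). The part of red cells in the Stom level was not tested.

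Angptl2 was at 421 and 478 CPM in tdTomato-positive GFP cells, against 95.6 and 69.5 CPM in tdTomato-positive Thy1.1 cells. The tdTomato-negative values were 164 and 124 CPM with GFP, against 54.0 and 53.9 CPM with Thy1.1. The log2 fold changes were 2.44 ± 0.19 and 1.41 ± 0.18. Stromal cells are a known source of Angptl2, and of the 9 stromal, endothelial and epithelial markers Pdgfra did not exceed 0.022 CPM and Col3a1 did not exceed 0.445 CPM. Col1a1 was at 7.83 and 0.86 CPM in tdTomato-positive GFP cells, against 1.02 and 0.594 CPM in tdTomato-positive Thy1.1 cells, and Pdgfrb was at 2.75 CPM in tdTomato-positive GFP library 3 and at most 0.0234 CPM in the others. That list summed to 156 to 188 CPM in tdTomato-positive GFP cells, 224 to 225 CPM in tdTomato-positive Thy1.1 cells, 296 to 315 CPM in tdTomato-negative GFP cells and 271 to 273 CPM in the tdTomato-negative Thy1.1 cells, mostly from Pecam1 and Epcam. The part of stromal cells in the Angptl2 level was not tested.

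The populations fell in 3 orders in the 9 genes whose counts allow a ranking, which leaves out Ctnnd1 with 3 or fewer counts in each GFP library. In 6 of the 7 genes lower with GFP among them, the order from high to low was tdTomato-positive Thy1.1, tdTomato-negative Thy1.1, tdTomato-positive GFP and tdTomato-negative GFP. Boc was the other 1, with tdTomato-negative Thy1.1 cells first. In Stom and Angptl2 it was tdTomato-positive GFP, tdTomato-negative GFP, tdTomato-positive Thy1.1 and tdTomato-negative Thy1.1. In 7 of the 9 no population overlapped the next, and the exceptions were Boc and Abcb1a. The share of all genes tested with such separation was not computed. The part of it between GFP and Thy1.1 cells follows from the choice of genes, so nothing is read from this count. The reporter difference was greater in tdTomato-negative cells for the 8 genes lower with GFP and in tdTomato-positive cells for the 2 genes higher with GFP. For Atp9a this turned without tdTomato-negative Thy1.1 library 1, where the log2 fold change was -1.62 in tdTomato-positive and -1.48 in tdTomato-negative cells, and for Ctnnd1, at 0.89 ± 1.23 on 5 counts in GFP cells, it turned without tdTomato-positive GFP library 4 and without tdTomato-negative GFP library 4. The difference between the label states (tdTomato-positive minus tdTomato-negative log2 fold change) ran from 0.37 in Atp9a to 2.41 in Naip5, with a median of 1.05 beside 0.028 over all genes tested. It is made of the contrasts used to choose the genes and was not tested for them; over all genes, 0.443% were called by a test of this difference.

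**Figure D2:**
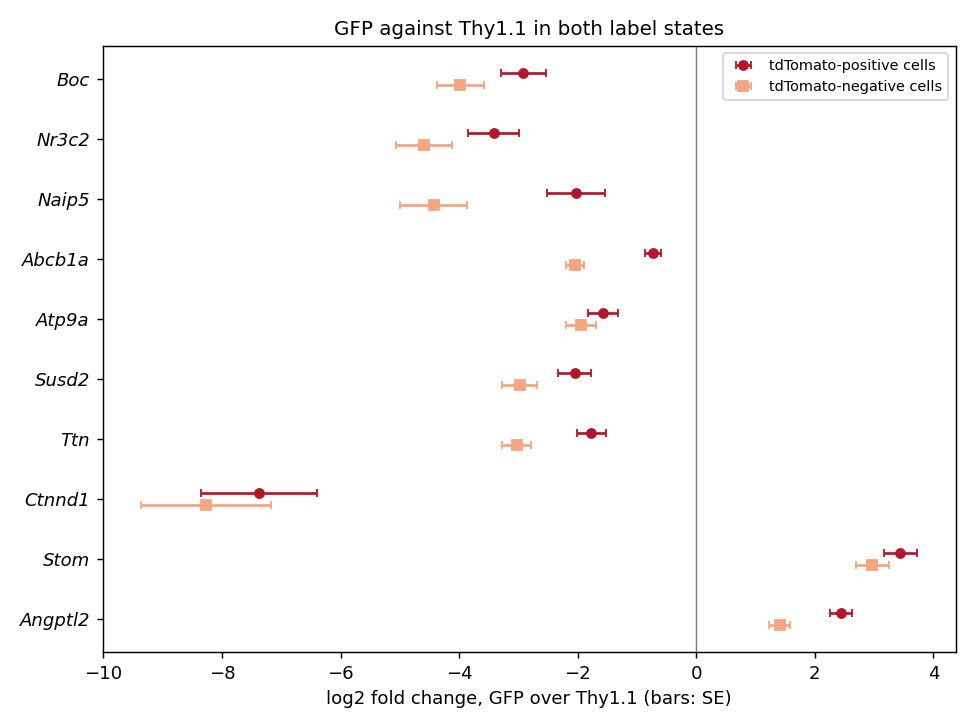
Log2 fold change of GFP over Thy1.1 for each gene in tdTomato-positive cells (circles) and tdTomato-negative cells (squares), with bars of 1 SE. Values run from -8.27 for Ctnnd1 in tdTomato-negative cells to 3.44 for Stom in tdTomato-positive cells, and each gene has the same sign in both states.

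The red label gave a comparison that the choice of genes did not use. With equal numbers of libraries, the mean of the label differences within GFP and within Thy1.1 cells is balanced over the reporters. It asks whether labelled and unlabelled cells differed on average over the reporters, and a call can rest mainly on 1 of them. Over all genes tested, 1768 were called for the label within GFP cells and 0 within Thy1.1 cells (edgeR adjusted p under 0.05). All 10 genes had a higher estimate in tdTomato-positive cells, and 7 passed the test (edgeR, adjusted over all genes tested), namely Susd2, Nr3c2, Naip5, Ttn, Abcb1a, Angptl2 and Stom. The background was 9.6% of genes tested, with 4.34% called higher and 5.26% lower. A nearer comparison is the 11 other genes called the same way for the reporter in both label states. Of these, Ccr2, Lag3, Havcr2, Snx2, Clec2g, Gm15987 and Ebi3 were called higher with the label by the same test. Myb was called lower, and Cd83, Thy1 and Slc7a10 were not called. Slc7a10 had 0 counts in every GFP library, so its average over the reporters cannot be estimated. Within Thy1.1 cells it was at 19.1 and 25.8 CPM with the label, against 7.68 and 10.9 CPM without it. The rise with the label is thus not particular to the members. The median of the members was 1.36 on the log2 scale, beside 0.018 over all genes tested. It was 1.96 within GFP cells and 0.71 within Thy1.1 cells, and all 10 members had the larger estimate within GFP cells. That gap between the reporters equals the difference between the reporter contrasts used to choose the genes, so it is no separate result. Over all genes tested, 52.3% had the larger estimate within GFP cells. The genes were chosen for clear differences, and the spread estimated for a gene enters this test as well.

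**Figure D3:**
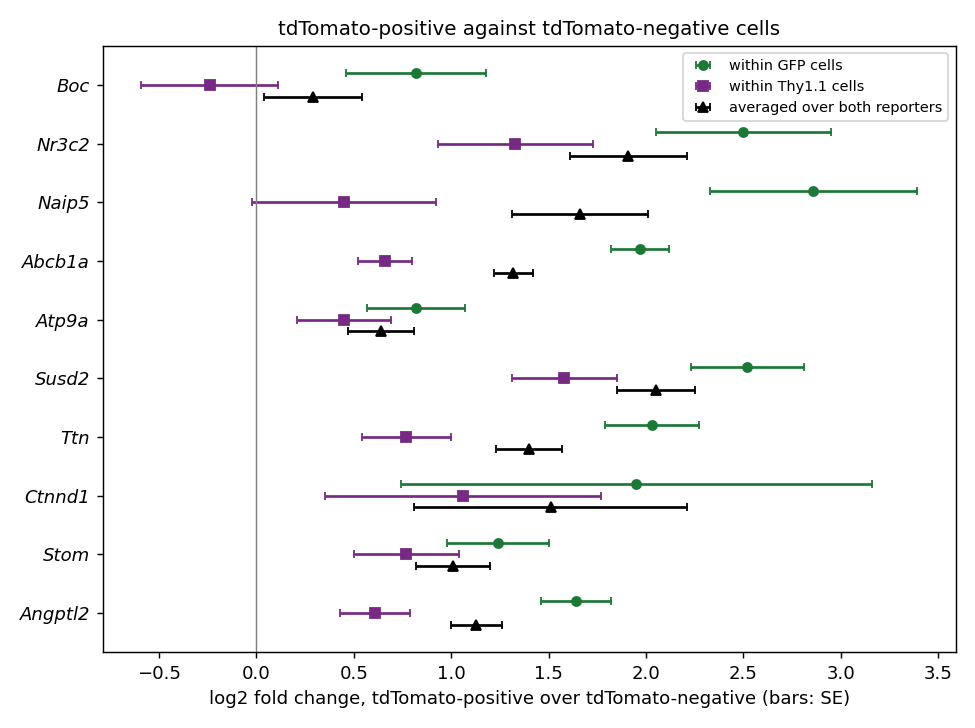
Log2 fold change of tdTomato-positive over tdTomato-negative cells for each gene within GFP cells (circles), within Thy1.1 cells (squares) and averaged over both reporters (triangles), with bars of 1 SE. Only Boc within Thy1.1 cells, at -0.24, lies below 0.

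Susd2 rose most, by 2.05 ± 0.20 averaged over the reporters (SE of log2, edgeR adjusted p = 0.00213), with 2.52 ± 0.29 within GFP and 1.58 ± 0.27 within Thy1.1 cells. Nr3c2 rose by 1.91 ± 0.30 (edgeR adjusted p = 0.00978), with 2.50 ± 0.45 within GFP and 1.33 ± 0.40 within Thy1.1 cells. For Naip5 the average was 1.66 ± 0.35 (edgeR adjusted p = 0.0271), with 2.86 ± 0.53 within GFP and 0.45 ± 0.47 within Thy1.1 cells. The size of the Naip5 difference therefore came mostly from GFP cells. Ttn rose by 1.40 ± 0.17 (edgeR adjusted p = 0.00443) and Abcb1a by 1.32 ± 0.10 (edgeR adjusted p = 0.00108). Within GFP cells these were at 2.03 ± 0.24 and 1.97 ± 0.15, and within Thy1.1 cells at 0.77 ± 0.23 and 0.66 ± 0.14.

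Both genes higher with GFP were also called higher with the label. Angptl2 rose by 1.13 ± 0.13 (edgeR adjusted p = 0.00407) and Stom by 1.01 ± 0.19 (edgeR adjusted p = 0.0172). Within GFP cells they were at 1.64 ± 0.18 and 1.24 ± 0.26, and within Thy1.1 cells at 0.61 ± 0.18 and 0.77 ± 0.27. Atp9a, at 0.64 ± 0.17, missed the threshold (edgeR adjusted p = 0.0568), and passed it at 0.85 without tdTomato-negative Thy1.1 library 1 (edgeR adjusted p = 0.0279). Boc was at 0.29 ± 0.25 (edgeR adjusted p = 0.514), with 0.82 ± 0.36 within GFP and -0.24 ± 0.35 within Thy1.1 cells. Ctnnd1 was at 1.51 ± 0.70 (edgeR adjusted p = 0.213), and within GFP cells its 4 counts in tdTomato-positive against 1 count in tdTomato-negative cells gave a ratio of 4.5 with an interval of 0.445 to 222.

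Ctnnd1 has too few counts in GFP cells to be ranked there. TdTomato-positive libraries lay above tdTomato-negative libraries without overlap within GFP cells in the other 9 genes (28.9% of genes tested) and within Thy1.1 cells in 9 of 10 (23.2% of genes tested), the exception being Boc. In both reporters at once this held for 8 genes, all but Boc and Ctnnd1, against 11.9% of genes tested. Of the 7 calls, those of Susd2, Ttn, Abcb1a and Angptl2 held with each of the 8 libraries left out. Naip5 lost its call without either tdTomato-positive Thy1.1 library, either tdTomato-negative GFP library or either tdTomato-negative Thy1.1 library, with adjusted p from 0.0646 to 0.104. Nr3c2 and Stom lost theirs without either tdTomato-positive Thy1.1 library, and Stom also without tdTomato-negative Thy1.1 library 2. Without tdTomato-negative GFP library 3, the library with the highest sum of myeloid and dendritic markers, 6 members were called. Fewer members were called without either tdTomato-positive Thy1.1 library and without tdTomato-negative Thy1.1 library 2. Calls over all genes tested also fell in these fits, so the loss is not particular to the members.

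Other Naip genes lie beside Naip5 on chromosome 13, and of these Naip2 and Naip6 were called lower with GFP in tdTomato-positive cells and 0 were called by edgeR in tdTomato-negative cells. Naip2, which senses a rod protein of bacterial secretion systems, was at 3.59 and 5.35 CPM in tdTomato-positive GFP cells, against 14.3 and 11.7 CPM in tdTomato-positive Thy1.1 cells, and fell by 1.54 ± 0.41 (edgeR adjusted p = 0.0435). In tdTomato-negative cells it was at 2.21 and 1.80 CPM with GFP, against 8.51 and 5.32 CPM with Thy1.1, a log2 fold change of -1.78 ± 0.42 (edgeR adjusted p = 0.151). Naip6, a further flagellin sensor, showed 2 counts in tdTomato-positive GFP cells, against 357 counts in tdTomato-positive Thy1.1 cells, a ratio of Thy1.1 to GFP of 157 (counting interval 43.2 to 1300; edgeR adjusted p = 0.0212). In tdTomato-negative cells Naip6 had 0 counts with GFP, against 178 counts with Thy1.1, at least 60.4-fold lower with GFP when set against 3 counts over the group (edgeR adjusted p = 0.103). Naip1, from 0.238 to 0.846 CPM, and Naip7, which did not exceed 0.48 CPM, did not pass in either state (edgeR adjusted p from 0.413 to 0.787). Nlrc4, the partner of all Naip proteins, was at 21.1 and 17.7 CPM in tdTomato-positive GFP cells, against 17.3 and 16.2 CPM in tdTomato-positive Thy1.1 cells, with a log2 fold change of 0.22 (edgeR adjusted p = 0.582). The Naip genes are near-identical copies, so the authors' counting could have split or moved reads between them and their separate levels are uncertain. The Naip2 call was lost in 8 of 14 alternatives, and the Naip6 call without either tdTomato-positive Thy1.1 library.

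**Figure D4:**
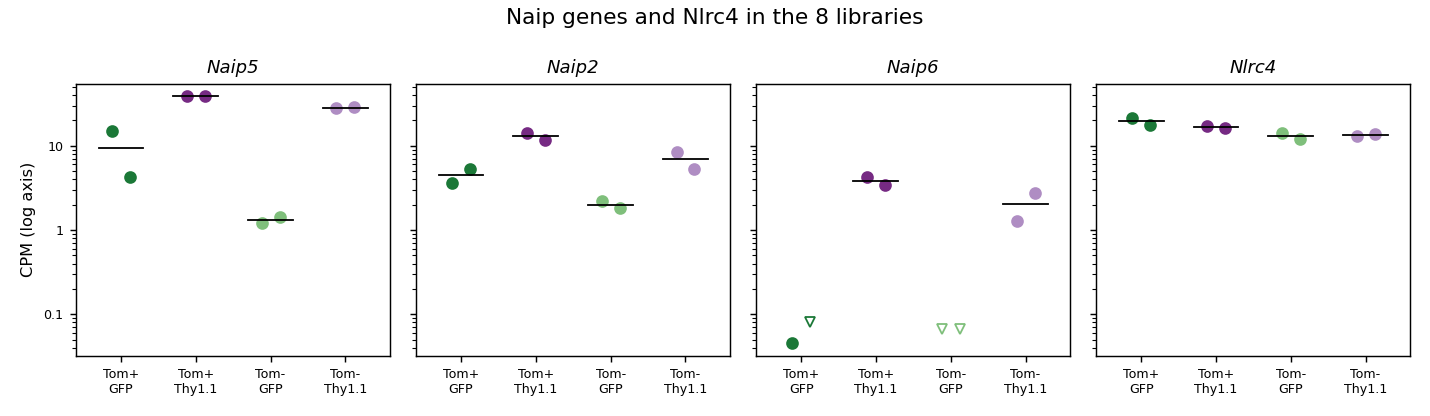
Level of Naip5, Naip2, Naip6 and Nlrc4 in each library, in CPM on 1 shared logarithmic axis, for tdTomato-positive (Tom+) and tdTomato-negative (Tom-) cells with GFP or Thy1.1. Points are libraries, lines are means, and open triangles mark counts of 0 drawn at the level of 3 counts; Naip6 has 2 counts in all 4 GFP libraries together, while Nlrc4 stays between 12.0 and 21.1 CPM.

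The position of the genes was looked up by symbol in the GENCODE M21 annotation, which served for chromosomes, neighbours and overlapping exons. Of the 10 members, 5 (Ttn, Ctnnd1, Atp9a, Stom and Angptl2) lie on chromosome 2, which holds 7.61% of the genes tested. In tdTomato-positive cells, 13.0% of the genes tested on chromosome 2 were called for the reporter, beside 14.8% over all chromosomes. Besides the members, 11 genes were called the same way in both label states, and 0 of them were on chromosome 2. These were Ccr2, Lag3, Havcr2, Myb, Snx2, Clec2g and Gm15987, higher with GFP, and Slc7a10, Cd83, Ebi3 and Thy1, lower with GFP, all named after their values were seen. A further 2 genes, Pde2a and Xkr6, were called in tdTomato-negative cells only.

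The nearest genes tested on each side of the members, 20 in all, are given for comparison. In tdTomato-positive cells 5 were called, each in the direction of its member, where 14.8% of all genes tested were called. These were Naip2 and Naip6 beside Naip5, Rundc3b beside Abcb1a at -1.0 ± 0.20 (edgeR adjusted p = 0.0141), Gsn, the actin-severing protein gelsolin, beside Stom at 1.43 ± 0.33 (edgeR adjusted p = 0.027), and Ralgps1 beside Angptl2 at 1.95 ± 0.20 (edgeR adjusted p = 0.00182). Gsn was at 0.67 without tdTomato-positive GFP library 3, where its call was lost. Of these 5 calls, that of Ralgps1 alone held with each library left out. In tdTomato-negative cells 0 of 20 were called by edgeR, with 9 (45.0%) at an unadjusted p under 0.05, against 11.9% of all genes tested, and 3 (15.0%) called by DESeq2 (Naip2, Naip6 and Ralgps1), against 4.15%. Ralgps1 also rose with the label, by 0.81 ± 0.14 (edgeR adjusted p = 0.0136), as Angptl2 did. The neighbours of Ttn, Ctnnd1, Atp9a, Susd2, Boc and Nr3c2 were not called for the reporter, among them Plekha3 beside Ttn at 0.12 ± 0.12 (edgeR adjusted p = 0.564), Nfatc2 beside Atp9a at -0.18 ± 0.12 (edgeR adjusted p = 0.386) and Cabin1 beside Susd2 at -0.34 ± 0.15 (edgeR adjusted p = 0.176). Of the neighbours of Boc and Nr3c2, Spice1 fell with the label by 0.82 ± 0.13 (edgeR adjusted p = 0.0111) and Arhgap10 rose by 0.45 ± 0.11 (edgeR adjusted p = 0.0445). The label calls of Ralgps1, Spice1 and Arhgap10 were each lost without at least 1 library.

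The genes whose pattern over the 8 libraries was most like that of the members were sought among 9636 named genes with a mean of at least 5 CPM. For the 8 genes lower with GFP, taken as the mean of their standardised log2 CPM, these were Ebi3, a cytokine subunit gene, with a Pearson r of 0.993, Sgf29 with 0.983 and the sushi-domain gene Susd4 with 0.983. Susd4 was at 3.02 and 2.15 CPM in tdTomato-positive GFP cells, against 13.7 and 11.4 CPM in tdTomato-positive Thy1.1 cells, and at 1.36 and 1.23 CPM in tdTomato-negative GFP cells, against 7.79 and 6.66 CPM in the tdTomato-negative Thy1.1 cells. Ebi3 was at 9.88 and 10.1 CPM in tdTomato-positive GFP cells, against 30.8 and 40.8 CPM in tdTomato-positive Thy1.1 cells, and at 3.53 and 3.26 CPM in tdTomato-negative GFP cells, against 19.8 and 22.5 CPM in the tdTomato-negative Thy1.1 cells. Exons of Ebi3 overlap Gm16712 on the other strand. Sgf29 was like the members in order but differed little in size, at -0.38 ± 0.12 in tdTomato-positive cells. For Stom and Angptl2 the most alike were Anp32e with 0.992, Golt1b with 0.991 and Timp2, an inhibitor of matrix metalloproteinases, with 0.991. Timp2 was at 526 and 594 CPM in tdTomato-positive GFP cells, against 207 and 209 CPM in tdTomato-positive Thy1.1 cells, and at 386 and 272 CPM in tdTomato-negative GFP cells, against 174 and 144 CPM in the tdTomato-negative Thy1.1 cells. Among the members themselves, Nr3c2 was most like the mean of the other 7 genes lower with GFP (r = 0.994) and Abcb1a least (0.902), and Stom and Angptl2 had r = 0.958. These 8 libraries share their populations, so the values are a description.

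Other genes of the members' families were taken from lists. The 10 lists held 120 tested genes that are no member, of which 11 were higher and 14 lower with GFP in tdTomato-positive cells (8.01% and 6.82% of all genes tested). In tdTomato-negative cells 0 of the 120 were called by edgeR (0.164% of genes tested), with 26 (21.7%) at an unadjusted p under 0.05, against 11.9% of all genes tested, and 10 (8.33%) called by DESeq2, against 4.15%. For the label averaged over reporters, 6 rose and 9 fell (4.34% and 5.26% of all genes tested).

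Of the 8 other Hedgehog genes tested, 0 were called for the reporter in tdTomato-positive cells. Their median log2 fold change was -0.11, and Cdon, the closest relative of Boc, was at 36.3 and 35.0 CPM in tdTomato-positive GFP cells, against 41.6 and 38.2 CPM in tdTomato-positive Thy1.1 cells. With the label 0 rose and 1 fell, Disp1, which releases Hedgehog ligands, by 0.76 ± 0.16 (edgeR adjusted p = 0.028). Of 13 inflammasome genes, 1 was higher and 3 lower with GFP in tdTomato-positive cells, with a median of -0.50. The label raised 2 of them, the caspase genes Casp1 by 1.11 ± 0.22 (edgeR adjusted p = 0.022) and Casp4 by 0.59 ± 0.14 (edgeR adjusted p = 0.0385).

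Of 11 steroid hormone genes, 1 was higher and 2 lower with GFP in tdTomato-positive cells. With the label 1 rose and 1 fell. Sgk1, a kinase gene induced by mineralocorticoid and glucocorticoid receptors, rose by 0.57 ± 0.14 (edgeR adjusted p = 0.0392). Nr3c1, the glucocorticoid receptor and relative of Nr3c2, was at 126 and 121 CPM in tdTomato-positive GFP cells, against 191 and 170 CPM in tdTomato-positive Thy1.1 cells. Its log2 fold change was -0.54 ± 0.11 (edgeR adjusted p = 0.0163) in tdTomato-positive cells and -0.22 ± 0.11 (edgeR adjusted p = 0.487) in tdTomato-negative cells.

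Of 21 ABC transporter genes, 3 were higher and 3 lower with GFP in tdTomato-positive cells, with a median of -0.08. The label lowered 2 and raised 0, with the cholesterol exporter gene Abca1 down by 1.43 ± 0.15 (edgeR adjusted p = 0.00282) and Abca7 at -0.45 ± 0.10 (edgeR adjusted p = 0.0318). Of 13 P4-ATPase genes, 1 was higher and 3 lower with GFP in tdTomato-positive cells, and the label raised 1 and lowered 4. Atp11b, a flippase gene, fell by 0.69 ± 0.11 (edgeR adjusted p = 0.0124), Atp8a1 by 0.72 ± 0.13 (edgeR adjusted p = 0.0146) and Atp10d by 0.69 ± 0.13 (edgeR adjusted p = 0.0192). The gene that rose was Atp8a2, by 1.1 ± 0.25 (edgeR adjusted p = 0.0318), and Atp9a also had a higher estimate in labelled cells. Exons of Atp8a2 overlap Nupl1 on the same strand.

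Of 14 cadherin and catenin genes, 2 were higher and 0 lower with GFP in tdTomato-positive cells, and the label raised 1, Ctnna1, which encodes alpha-catenin, by 0.55 ± 0.11 (edgeR adjusted p = 0.0226). The stomatin family had 1 of 8 higher with GFP and 0 called for the label. Of 10 angiopoietin-like genes and receptors, 1 was lower with GFP. The label raised Lilrb4a, an inhibitory receptor gene, by 1.37 ± 0.18 (edgeR adjusted p = 0.00522). Exons of Lilrb4a overlap Gm49339 on the same strand and Gm40645 on the other. Of 9 sarcomere partners of titin, 1 was higher and 1 lower with GFP in tdTomato-positive cells. Capn3, a calpain that binds titin, fell with the label by 0.84 ± 0.20 (edgeR adjusted p = 0.0358). Exons of Capn3 overlap Ganc on the same strand. Of 13 sushi-domain genes, 1 was higher and 1 lower with GFP, and 0 were called for the label. The lower 1 was Susd4, at -2.28 ± 0.40 (edgeR adjusted p = 0.00948) in tdTomato-positive and -2.47 ± 0.40 (edgeR adjusted p = 0.0616) in tdTomato-negative cells, and its call was lost without either tdTomato-positive Thy1.1 library. Among the family genes named here other than Atp8a2, leaving out 1 library ended the label calls except those of Abca1 and Lilrb4a.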

How the data were processed

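The values are raw read counts, deposited unnormalized in 1 table of genes, as their whole numbers show. What aligned and counted the reads, and on which build, is not given in the sources used here. DESeq is listed, with no version, in the submitters' processing notes. PolyA RNA was amplified with SMART-Seq v4 (12 cycles), 2 to 10 ng of cDNA entered KAPA Hyper Prep libraries (8 cycles), and sequencing was paired-end at 50 nt, as the labels' protocols state. Of 24116 rows, 8 named no gene; they held at most 0.0264% of a library's counts, and were left out. GFP columns are numbered 3 and 4 where the titles say 1 and 2, so they were matched to their population only.

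With R 4.3.3 and edgeR 4.0.16, genes were filtered at a minimum count of 10 and scaled by TMM, and 1 quasi-likelihood model was fitted to 8 libraries with a mean per population and 4 residual degrees of freedom. P-values were adjusted over all genes by Benjamini-Hochberg at 0.05. DESeq2 1.42.0, other scalings and filters, blocks by column number and leaving out each library were alternatives. The script was tested on simulated data. Members and lists were chosen with earlier results of these data known. Besides members, genes were named as neighbours, as the 3 most alike per direction, as family genes called for the label (up to 3 per list; 1 such gene and some markers are not reported here), or as Foxp3 and Thy1; others (Naip1, Naip7, Nlrc4, Cdon, Nr3c1, Abcb1b and Ctnnb1) were chosen after their values were seen. GENCODE symbols matched 97.1% of names.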

Additional observations from a re-analysis of the deposited data

Results flagged for a closer look

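Sgk1, a kinase gene induced by the mineralocorticoid receptor, differed in its label effect between the reporters by the test of that difference. It was at 70.4 and 93.2 CPM in tdTomato-positive GFP cells, against 18.5 and 23.4 CPM in tdTomato-positive Thy1.1 cells, and at 31.0 and 28.3 CPM in tdTomato-negative GFP cells, against 25.7 and 26.7 CPM in the tdTomato-negative Thy1.1 cells. The label difference was 1.46 within GFP and -0.32 within Thy1.1 cells on the log2 scale, so that the interaction was 1.79 ± 0.27 (edgeR adjusted p = 0.0478, 2 libraries per population; 0.443% of genes tested were called). The call was lost in 9 of 15 alternatives, with the value between 1.56 and 1.91 and an adjusted p of up to 0.233.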

How the results depend on the processing

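The sign of the reporter difference and of the averaged label effect stayed the same for each member under every alternative run, but the order of the reporter differences between label states turned for Atp9a in 1 and for Ctnnd1 in 2 of 14 alternatives. The largest moves of a reporter difference on leaving out 1 library were 2.34 times for Naip5 in tdTomato-positive cells and, for Ctnnd1, whose fitted size rests on 5 counts in GFP cells, 2.11 and 4.85 times. Without a replicate the genes called for the reporter ranged from 481 to 2118 in tdTomato-positive cells, from 0 to 75 in tdTomato-negative cells and from 0 to 69 in both, with 0 in the last 2 kinds when any of the 4 Thy1.1 libraries was left out and 9 without tdTomato-negative GFP library 3. The count in tdTomato-positive cells was 481 and 524 without tdTomato-positive Thy1.1 libraries 1 and 2. DESeq2 called 3164, 581 and 404. In tdTomato-negative cells and in both states, no low-count filter gave 98 and 81, the stricter filter 105 and 83, and the replicate block of odd against even columns 39 and 33. For the averaged label effect, 343 to 1786 genes were called without a replicate and 2565 by DESeq2. Without a replicate 4 to 7 members were called, with the effect from 1.06 to 1.97 for Naip5, 1.70 to 2.20 for Nr3c2, 0.85 to 1.20 for Stom and 0.45 to 0.85 for Atp9a. Atp9a passed at 0.63 with the stricter filter and at 0.63 by DESeq2. With the column number as a replicate block within each reporter, 1726 genes and the same number of members, 7, were called. Deviations of same-parity libraries correlated over all genes tested with r from 0.033 to 0.056, and the main model did not pair samples by these numbers. Such a correlation cannot exclude a shared difference between odd and even columns in some genes. The cause of these moves was not tested. Leaving out a library leaves 1 sample in its population, which is assumed to vary like the others. Depth limits the values of Ctnnd1 and Naip6 in GFP cells.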
